A study of Mus musculus with 4 samples.

Results

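The coding transcripts described here end their reading frame well before their last splice junction. They were selected on the coordinates of the mouse mm10 gene annotation deposited with a CUT&Tag study of RNA polymerase I (Pol I), the enzyme that makes ribosomal RNA. A transcript row qualified when its coding part ended more than 55 exonic bases upstream of the last exon junction, read in the direction of transcription. Rows eligible for the rule lay on the assembled chromosomes, had a coding part and had 2 or more exons. Of 36443 eligible rows, 86 met the rule (0.236%), and they belonged to 66 of 18856 eligible gene symbols (0.350%). The whole annotation holds 50727 rows.

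The 4 libraries of the series came from C64 mouse embryonic stem cells. Auxin at 500 nM for 6 h was given to 2 of them, and the control group of 2 was left untreated. No protein that auxin would degrade is named in the labels, and nothing there says whether the replicates were separate cultures. The annotation carries no value per library, so neither sequencing depth nor an effect of auxin is given. Coordinates have no replicate error, and the counts and lengths are descriptions without a test.

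Splicing leaves a set of proteins, the exon junction complex, on the mRNA a short way upstream of each junction, and the first ribosome to pass strips them off. When a stop codon lies far enough upstream of a junction, a complex can stay on the mRNA behind the terminating ribosome and recruit the factors of nonsense-mediated decay (NMD), with the helicase Upf1 at their centre. Most genes keep their stop in the last exon, and a few normal genes with introns in the 3' untranslated region (3' UTR) are known natural targets of this decay. Arc, a synaptic plasticity gene whose mRNA is made in bursts in active neurons, is the textbook case. Passing the rule makes a row a candidate by position alone, and the annotation says nothing about whether its mRNA is made or degraded in these cells.

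The stop codon itself could be read for 3 members, in RefSeq sequences of build GRCm38.p6 that happen to cover it. These sequences are shown because the rule rests on where the stop is. Capitals mark the stop codon, in each case as the last 3 bases of the annotated coding part, and all are written on the transcript's strand.
Cers1, chr8:70329566-70329592, plus strand: gacaagctcttcTGAgtctcttgtcct
LOC114841036, chr19:6979438-6979464, minus strand: gctagcgggaacTGAagaacggagatg
Rps6ka4, chr19:6829933-6829944, minus strand: uccUAGcucccg
The first 2 come from the promoter windows of the genes that start there, Gdf1 and Fkbp2. The third is the 5' end of the precursor of microRNA miR-5046. Among the other eligible rows, 107 distinct stops were covered by such a sequence, and 107 of them read TAA, TAG or TGA. Distances are therefore counted from the last base of the stop codon.

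The Rps6ka4 stop thus sits inside a microRNA hairpin. Rps6ka4 encodes the stress- and growth-factor-activated kinase MSK2. The 59-base hairpin of Mir5046 (positions 6829886 to 6829944 on chromosome 19) begins just before the stop codon, and 53 of its bases lie after it. The mature microRNA takes up the last 2 bases of the stop codon. In its sequence, printed next, the capitals mark the seed.
mmu-miR-5046, chr19:6829917-6829940, minus strand: aGCUCCCGccacugugacccccuu
No other member had a microRNA of the RefSeq table in its exons after the stop, and 0 members had one inside a 3' UTR intron.

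Distances ran from 56 to 3120 exonic bases, with a median of 141. A distance of 56 to 200 bases was found in 50 rows, one beyond 200 and up to 500 in 10 rows, and one above 500 in 26 rows. Members were rare among rows whose stop precedes the last junction at all. Of 2060 such rows, 1974 had a distance of 1 to 55 bases, and 1914 of those lay at 1 to 45. The number of rows dropped to 46 at distances of 46 to 50, 14 at 51 to 55 and 7 at 56 to 60. Just inside the threshold were Csmd2, Mroh8 and Riiad1 at 56 bases, Ajap1 and Prelid3a at 58 and Selenov at 59. Just outside were Elk3 and Tbrg4 at 55 bases, H2-Q6, H2-Q10, Lenep and Pnma5 at 54 and Hap1 at 53. The steepest drop thus lay ahead of the threshold, and the count was lower again just past it.

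**Figure D1:**
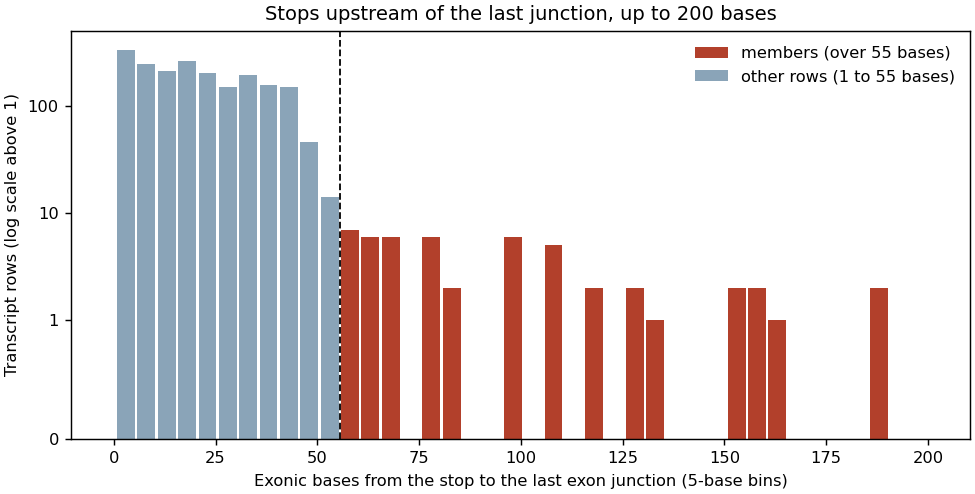
Number of transcript rows (log scale above 1) by the exonic distance from the stop to the last junction, in 5-base bins up to 200 bases; the dashed line marks 55 bases, red bars are members and blue bars are other rows. The blue bars fall to 14 rows at 51 to 55 bases, and the first red bar, at 56 to 60 bases, holds 7 rows.

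A single intron followed the stop in 58 of the 86 rows. Another 17 rows had 2 introns, and 11 rows had 3 to 11. In the rows with 2 or more, the first junction after the stop lay within 55 bases in 21 of 28 rows and farther off in 7. At least 2 junctions lay beyond 55 bases in 15 rows of 11 symbols, which were Arc, Dusp13, Gnas, LOC114841036, Mocs2, Nrg4, Nupr1l, Nxf1, Prcd, Snurf and Thoc2l. The shortest 3' UTR intron had 76 bases, in LOC114841036. The longest were in Gnas (48734 bases), Kcna6 (26507), Gm10634 (24342), Jakmip3 (15420) and Hrk (14349).

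**Figure D2:**
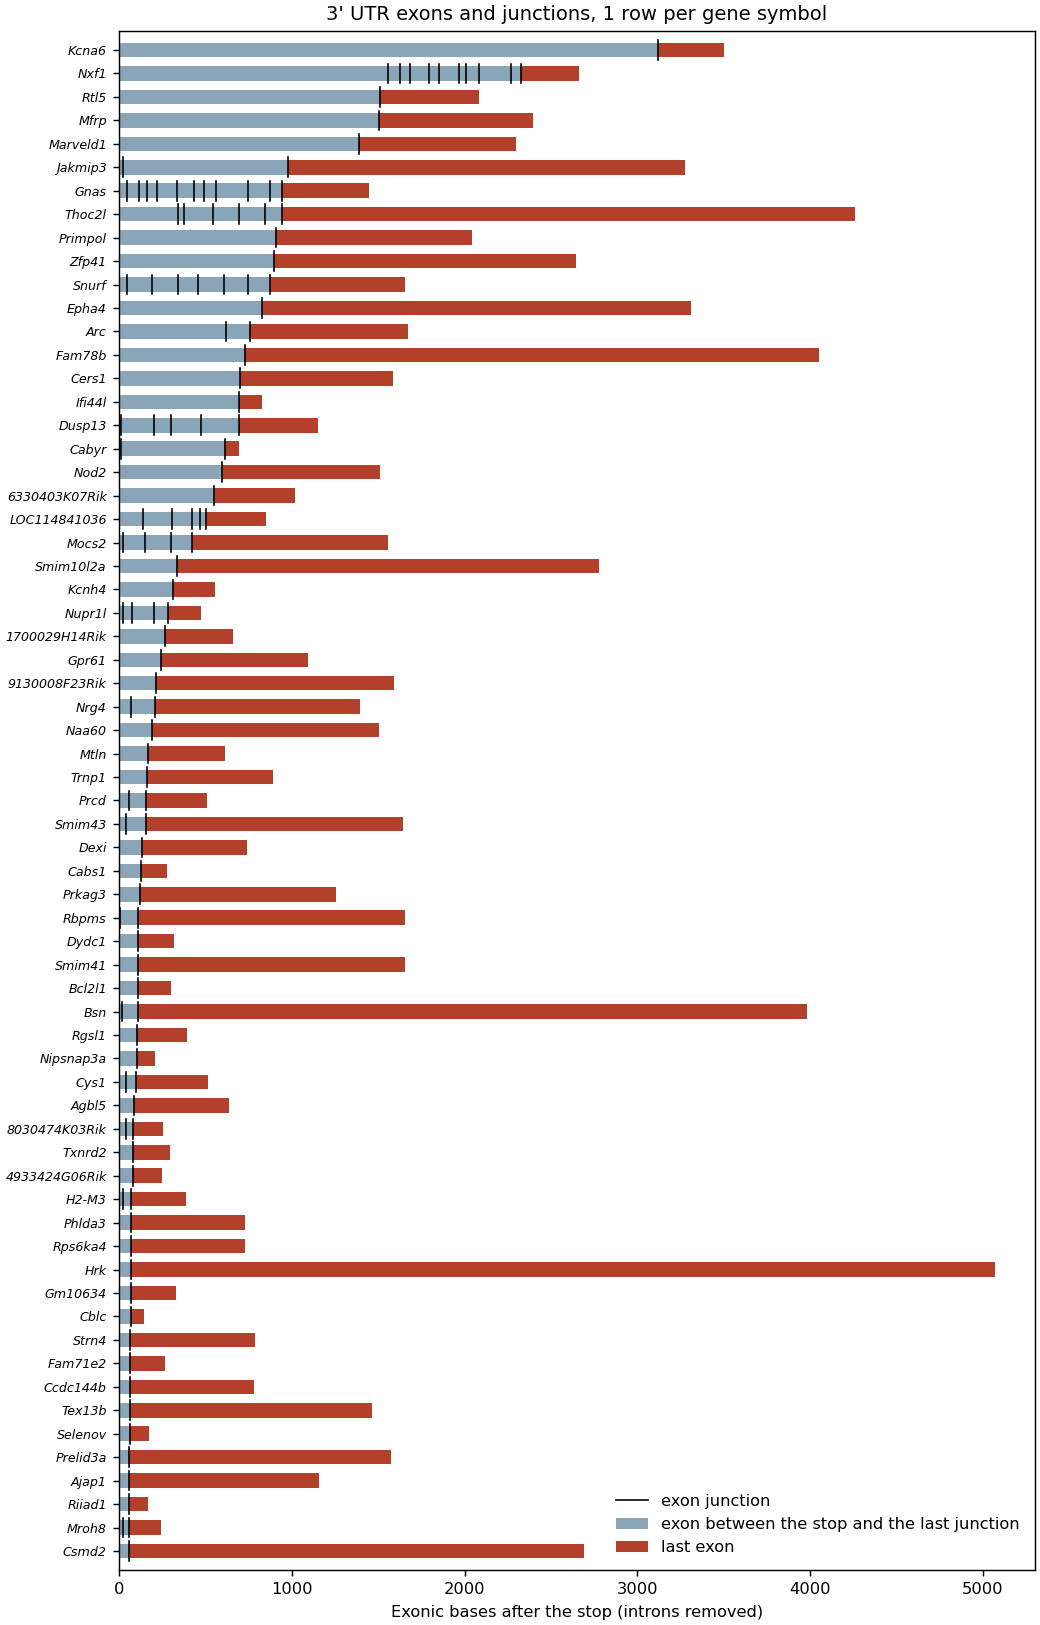
Exonic bases after the stop, with introns removed, for the row with the longest stop-to-junction distance of each of 65 symbols, ordered by that distance; black ticks are exon junctions, blue is exon between the stop and the last junction, and red is the last exon. Kcna6 has the longest blue stretch (3120 bases) before a single junction, Nxf1 and Gnas have the densest runs of ticks, and Hrk has the longest 3' UTR (5068 bases), almost all of it in the last exon.

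Arc had 2 rows, and both were members. They shared the position (chromosome 15, 74669081 to 74672570, minus strand), the coding part of 1191 bases for 396 codons before the stop, and 3 exons, with the whole reading frame in the first. After the stop came 617 bases to the first junction, then a middle exon, then a last exon of 913 bases. The rows differed only in the middle exon, which had 137 bases in the first row and 140 in the second, because its 5' border was moved by 3 bases. The stop-to-last-junction distance was accordingly 754 bases in the first and 757 in the second. The introns were short, with 248 or 245 bases for the first and 186 for the second. Both 3' UTR junctions were thus more than 55 bases from the stop in both rows. This held for every junction after the stop in 7 of the 28 rows with 2 or more such introns.

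Arc descends from the Gag gene of a retrotransposon, and Rtl5 is another mammalian gene of such origin. Rtl5 (chromosome X, 102066542 to 102071307, minus strand) had a similar layout, with its 1800 coding bases in the first of 2 exons and a junction 1509 bases after the stop. The resemblance was not shared by the other Rtl genes with 2 or more exons, as 1 of 5 was a member and the other rows kept the stop at least 117 bases inside the last exon. Arc and Rtl5 were paired after their values were seen. A reading frame within 1 exon was found in 21 of the 66 member symbols, so this layout is not particular to the pair. Among the 21 eligible symbols of the immediate early gene list, Arc was the only member. With 0.350% of all eligible symbols being members, the other genes of this list and of the Rtl family would mostly hold none. Arc was named in advance and the Rtl family was chosen from the members, so neither count supports a rate.

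Other members with a role in the nervous system, gathered after their values were seen, ranged widely in distance. Kcna6, a voltage-gated potassium channel of the Kv1 group, had the greatest distance of all, at 3120 bases, with its 1590 coding bases in the first of 2 exons and an intron of 26507 bases behind them. Epha4, an ephrin receptor of axon guidance, had its stop 823 bases before the last junction. Kcnh4, another potassium channel, stood at 310 bases and Trnp1, a regulator of neural progenitors, at 158. Bsn, which encodes Bassoon, the scaffold of the presynaptic active zone, had the longest reading frame of the members (11829 bases), with junctions 14 and 107 bases after the stop. Jakmip3, which was not placed in this group, had a first junction at 22 bases and a last one at 975. Its introns after the stop had 592 and 15420 bases.

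In the gene families looked at, a member mostly stood alone among its relatives. Epha4 was the only member among 14 Eph receptor genes, Kcna6 among 6 Kcna genes and Kcnh4 among 8 Kcnh genes. The same held for Csmd2 (1 of 3), Txnrd2 (1 of 3), Strn4 (1 of 3), Cblc (1 of 3), Prkag3 (1 of 3), Nod2 (1 of 2), Cers1 (1 of 6), Rps6ka4 (1 of 6), Nxf1 (1 of 4) and Dusp13 (1 of 23). In each of these families no other symbol had a row with its stop upstream of the last junction at all. The families of Zfp41 (1 of 391 Zfp genes) and Tex13b (1 of 4) did hold further genes with a stop 1 to 55 bases upstream. These were 11 Zfp genes and Tex13c1. Over all eligible symbols, 1128 of 18856 had a row with such a stop, so small families would often hold none. With 0.350% of all eligible symbols being members, families of 2 to 23 symbols would mostly hold no second member, so standing alone sets none apart. The families were chosen from the members, so these counts describe them and support no rate.

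Genes of cell death formed a small group, gathered after their values were seen. Bcl2l1 encodes the survival factor Bcl-xL, and 1 of its 5 eligible rows was a member. That row had 708 coding bases, 5 exons and a stop 108 bases before the last junction. The other 4 rows shared a coding part of 702 bases with the stop 138 bases inside the last exon. Hrk encodes Harakiri, a BH3-only protein that binds Bcl-xL. Its single row had 279 coding bases, a junction 67 bases after the stop and then an intron of 14349 bases before a last exon of 5001 bases. Phlda3, a p53 target that dampens Akt signalling, had its junction 68 bases after the stop. Of the 23 eligible Bcl2 family symbols, Bcl2l1 and Hrk were the 2 members, beside 0.350% of all eligible symbols. In the others every stop was at least 12 bases inside the last exon. This family too was chosen from the members, so the count supports no rate.

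Loci that give more than 1 protein were the list with the most members, at 5 of 12 eligible symbols, beside 0.350% of all symbols. The list was chosen with earlier results known. A frame followed by spliced exons of a second product readily passes the rule, so the count supports no rate. In the member rows of these loci, part of the bases after the stop is annotated as coding in other rows. Whether those bases are translated from the member transcript was not tested. Cers1 encodes a neuronal ceramide synthase, and its transcript also carries Gdf1, a TGF-beta family ligand of left-right patterning. The Cers1 stop lay 696 bases before the last junction, and 1074 of the 1586 bases behind it were coding in Gdf1. The same 3' UTR overlapped exons of Upf1, the NMD helicase, on the opposite strand over 96 bases. Overlap with opposite-strand exons of another gene was found in 6.98% of member rows and 8.16% of rows with a stop 1 to 55 bases upstream. Mfrp, a membrane protein of the retinal pigment epithelium, had 2 rows with the stop 1504 bases before the last junction, and 732 of the 2397 bases behind it were coding in C1qtnf5. Snurf had 216 coding bases followed by 7 introns, and 723 of 1654 bases after its stop were coding in Snrpn, a spliceosomal protein gene of the same imprinted transcript.

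Mocs2 makes both subunits of molybdopterin synthase from overlapping frames. Its member row had 267 coding bases and 4 introns after the stop, with the last junction 421 bases away, and 490 of 1553 bases after the stop were coding in its other rows. Both other Mocs2 rows ended their coding part 69 bases inside the last exon. Gnas, the imprinted locus of the stimulatory G protein alpha subunit, had 4 members among 11 eligible rows. Their coding parts had 762, 762, 2178 and 2484 bases, and their last junctions lay 160, 941, 899 and 866 bases after the stop. The row with 2178 coding bases ended its reading frame exactly at an exon border, and the 2 rows with most introns had 11 after the stop. Coding parts of other Gnas rows covered 18.7% of the bases after the stop in the row with 3 introns and 72.4% to 74.6% in the other members. In the remaining 7 Gnas rows the stop was in the last exon, 147 or 275 bases past its junction. The further listed symbols Mocs1 and Cdkn2a had stops 1 to 55 bases upstream, as did 1128 of all 18856 eligible symbols.

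LOC114841036 showed the same arrangement outside the list. Its row on chromosome 19 (6977585 to 6980440, minus strand) had 801 coding bases and 5 introns after the stop, and 423 of 851 bases behind the stop were coding in Fkbp2, an ER prolyl isomerase gene. In all, 18 of 86 member rows (20.9%), from 12 symbols, had bases after the stop that another same-strand row reads as coding. For rows with a stop 1 to 55 bases upstream the share was 661 of 1974 (33.5%). A gene of another symbol supplied the coding bases in 5 of 86 member rows (5.81%), against 11 of 1974 (0.557%) of those rows. Rows of a symbol share exons, so neither share was tested.

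**Figure D3:**
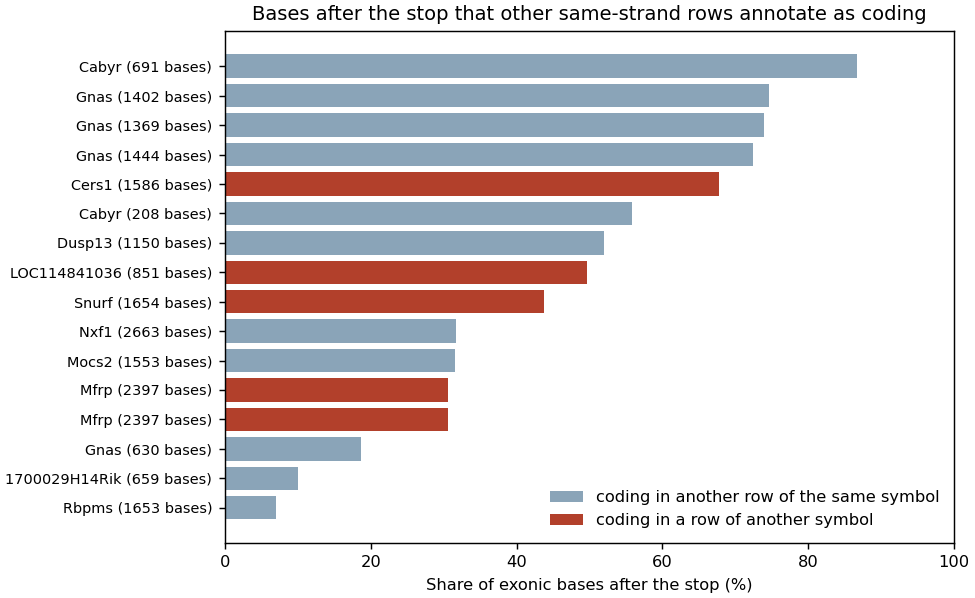
Share of the exonic bases after the stop (%) that other rows on the same strand annotate as coding, for 16 of the 18 member rows with any; the number in brackets is the count of bases after the stop, red is coding in a row of another symbol and blue in another row of the same symbol. Cabyr reaches 86.7% and Gnas up to 74.6% from their own symbols, and Cers1 reaches 67.7% from Gdf1.

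In 57 of 66 symbols every eligible row was a member. Of these, 45 had a single eligible row, which cannot show an alternative, and 12 had several. Among symbols with several eligible rows, 12 thus had members only and 9 also had rows that were not members. Cys1, which encodes the ciliary protein cystin, had 3 rows with the stop 98 bases before the last junction in each. Fam78b also had 3 rows, at 406, 408 and 726 bases, with identical coding parts of 786 bases. The uncharacterised 1700029H14Rik had 2 rows at 119 and 262 bases. The ubiquitin ligase gene Cblc had 2 rows at 65 bases, and the mitochondrial thioredoxin reductase gene Txnrd2 had 2 at 77. Zfp41 had 2 rows at 894 bases that differed in the 5' UTR. A single eligible row was also the rule in the annotation as a whole, with 10836 of 18856 symbols (57.5%), against 68.2% of the member symbols. A row without a coding part existed for 5 of the 66 symbols.

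In the other 9 symbols, 15 member rows stood beside 33 eligible rows that were not members. Of these 33, 29 had the stop in the last exon and 4 had it 1 to 55 bases upstream of the last junction. The same stop codon as a member was used by 2 of them, a row of Cabyr and a row of Rbpms, which differed from the member by an exon in the 3' UTR. Cabyr encodes a calcium-binding protein of the sperm fibrous sheath. Its members had 1362 coding bases and last junctions at 129 and 612 bases, the row with the same stop had its junction at 9 bases, and the 2 rows with another stop had theirs at 4. Rbpms, an RNA-binding protein gene, had a member at 110 bases, and the row with the same stop stood at 6.

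Nxf1 gave the clearest pair. It encodes the receptor that carries mRNA out of the nucleus, and retention of its intron 10 is known to yield a shorter protein. Of its 2 rows, the member had 20 exons, and its exon 10 of 1912 bases contained the whole of intron 10 (1765 bases) of the other row. Its coding part ended inside that exon after 1257 bases, against 1857 bases in the other row. The stop was followed by 1558 bases to the next junction and by 10 introns in all, with the last junction at 2326 bases. In the other row the stop lay 39 bases inside the last exon. No other member row held a complete intron of a sister row as exon.

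Agbl5 and Dusp13 also had rows with other stops. Agbl5, a deglutamylase that trims tubulin, had 2 members among 4 rows, both at 82 bases. Dusp13, whose locus gives 2 different phosphatases, had 1 member among 6 rows. Its 567 coding bases were followed by 5 introns with the last junction at 693 bases, and 598 of 1150 bases after its stop were coding in the other rows.

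**Figure D4:**
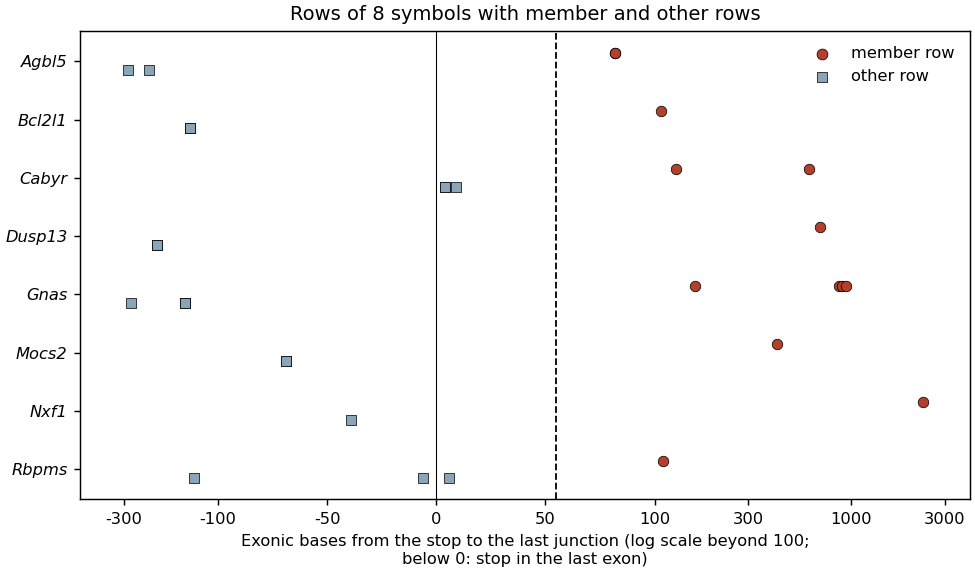
Exonic bases from the stop to the last junction (log scale beyond 100; below 0 the stop is in the last exon) for each eligible row of 8 of the 9 symbols with member rows (red circles) and other rows (blue squares, drawn lower); the dashed line marks 55 bases, and rows with equal values overlap. Nxf1 is farthest apart, with its member at 2326 and its other row at -39, and the other rows of Cabyr and the same-stop row of Rbpms lie between 0 and the threshold.

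Thoc2l, grouped with Nxf1 and Rbpms after its values were seen, is a paralogue of the THO export complex gene Thoc2. It had 4770 coding bases, all within 1 exon, and 6 introns after the stop, with the last junction at 940 bases. Splicing regulators are known to control their own levels through NMD. Of 17 eligible SR, Tra2 and Clk symbols 0 had a member row, and of 43 hnRNP and other RNA-binding protein symbols 0. With 0.350% of all eligible symbols being members, lists of this size would mostly hold none, so these counts set neither list apart. Stops 1 to 55 bases upstream were present for Srsf2 in the first list and for 9 symbols in the second, among them Hnrnpa2b1, Hnrnpd and Hnrnpdl. Over all eligible symbols, 1128 of 18856 had a row with such a stop. The NMD factors themselves, with 21 eligible symbols, also had 0 members, which is likewise no departure from 0.350%, and Upf1 and Casc3 had stops 1 to 55 bases upstream.

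Across the 13 lists, 9 of 245 eligible symbols (3.67%) had a member row, beside 0.350% of all eligible symbols, and these came from 4 lists. The list of loci with more than 1 protein supplied 5 of the 9. All lists were chosen with earlier results known, so the 3.67% supports no rate. The selenoprotein list had 2 of 22, Txnrd2 at 77 bases and the testis selenoprotein Selenov at 59. Selenoprotein frames read through a UGA codon, and whether the annotated ends of these rows lie beyond it could not be read from the sequences at hand. The MHC list had 1 of 20, H2-M3, which presents formylated bacterial peptides and had junctions 22 and 69 bases after its stop. Another 6 MHC symbols had stops 1 to 55 bases upstream, H2-Q6 and H2-Q10 at 54 among them, beside 1128 of all 18856 eligible symbols. No symbol was a member in the lists of stress response genes (15 eligible), axon guidance genes (14), polyamine genes (10), pluripotency factors (16), heat shock factors and chaperones (19) and Pol I subunits and factors (15), and at 0.350% lists of 10 to 19 symbols would mostly hold none. Epha4 acts in axon guidance but is not in that list.

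Several members act in immunity, photoreceptors or cilia, or in germ cells, grouped here after their values were seen. Nod2, a sensor of bacterial cell wall fragments, had its stop 593 bases before the last junction. Ifi44l, an interferon-induced gene, stood at 693 bases with an intron of only 79 bases. Prcd, a photoreceptor disc protein of 53 codons, had junctions at 57 and 152 bases. In testis, Cabs1 stood at 127 bases and Tex13b at 60. Among enzymes and signalling proteins, Primpol, a primase-polymerase of DNA damage tolerance, stood at 905 bases, Nrg4, a ligand of the receptor ErbB4, had junctions at 69 and 208, and Prkag3, a muscle subunit of AMP-activated kinase, stood at 118. Marveld1, with the fifth-longest distance of the symbols, had its stop 1389 bases before the only junction. Nupr1l had 2 rows with the same 309 coding bases and the last junction at 70 and 283 bases.

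The other members were of mixed or unknown function and lay mostly nearer to the last junction. Gpr61, an orphan G protein-coupled receptor gene, had its 1350 coding bases in 1 exon and stood at 242 bases. Naa60, an N-terminal acetyltransferase of the Golgi, had 2 rows at 186 bases that differed in coding length (534 and 729 bases). Both rows of Rgsl1 stood at 100 bases and both rows of the striatin gene Strn4 at 62. Dexi stood at 131 bases, Dydc1 at 109, Nipsnap3a at 99, Gm10634 at 66, Fam71e2 at 62 and Ccdc144b at 61. Of the genes known only by a clone name, 6330403K07Rik stood at 548 bases with an intron of 79 bases, 9130008F23Rik at 211, 8030474K03Rik at 80 and 4933424G06Rik at 77.

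Many members had short reading frames. Their median coding length was 802.5 bases, against 1210.5 for rows with a stop 1 to 55 bases upstream and 1299 for rows with the stop in the last exon or at its junction. Frames of at most 100 codons made up 9 of 86 member rows (10.5%), 100 of 1974 (5.07%) and 931 of 34383 (2.71%) in the same order. By symbol these shares were 13.6%, 7.36% and 3.56%. The smallest were Prcd (53 codons), Mtln (56), Smim43 (63), Snurf (71) and Smim10l2a (78). Mtln encodes mitoregulin, a mitochondrial micropeptide, and its stop was 163 bases before its junction. Of 30 eligible Smim genes, named for small integral membrane proteins, 3 were members, Smim10l2a at 335 bases, Smim41 at 108 and Smim43 at 151. Another 4 had stops 1 to 55 bases upstream. Over all eligible symbols 0.350% were members, and 1128 of 18856 had a row with the nearer stop. The family was chosen from the members, so its counts support no rate.

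The whole reading frame lay in a single exon in 26 of 86 member rows (30.2%), against 60 of 1974 (3.04%) with a stop 1 to 55 bases upstream and 1950 of 34383 (5.67%) of the rest. Kcna6, Rtl5, Marveld1, Zfp41 and Arc were of this kind, so each splice junction of these rows that is not in the 5' UTR lies after the stop. Members had a median of 7 exons in all and 3 coding exons, while the rows with a nearer stop had 11 and 9, and the rest had 9 and 8. Median 3' UTR length was close in the members (1026 bases) and the rows with a nearer stop (1019), and was 898 bases in the rest. An intron in the 5' UTR was present in 24.4% of members, 38.4% of the rows with a nearer stop and 49.4% of the rest. These shares were not tested, because rows of a symbol are not independent.

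**Figure D5:**
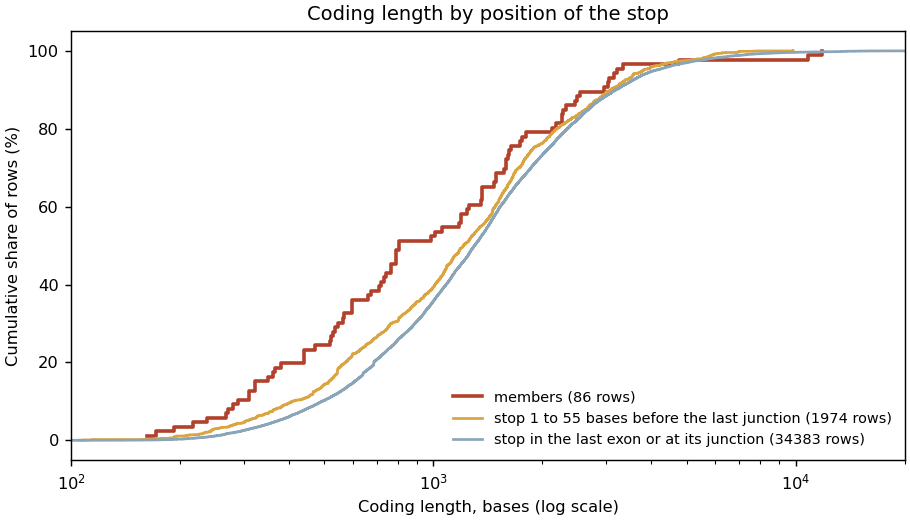
Cumulative share of rows (%) by coding length in bases (log scale) for members (red, 86 rows), rows with a stop 1 to 55 bases before the last junction (yellow, 1974 rows) and rows with the stop in the last exon or at its junction (blue, 34383 rows). At its median of 802.5 bases the red curve lies left of the others, whose medians are 1210.5 and 1299 bases, and it meets them among the longest frames.

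Members were spread over 19 of the 21 chromosomes that held eligible rows, with 44 rows on the plus and 42 on the minus strand. The share of eligible rows was highest on chromosome 16 (0.477%, 5 rows of 3 symbols) and next on chromosome 1 (0.446%, 9 rows of 6 symbols). Chromosomes 10 and Y had none among 1705 and 298 eligible rows. The bases after the stop overlapped exons of another gene on the opposite strand in 6 rows (6.98%) of 5 symbols, against 8.16% of rows with a stop 1 to 55 bases upstream. The partners were Ost4 for Agbl5, Mccc1os for Ccdc144b, Upf1 for Cers1, Fbxo22 for Nrg4 and Cenpu for Primpol. The only gene lying entirely inside a 3' UTR intron of a member was Gm30189, in 3 rows of Gnas. All 66 symbols were protein-coding genes with an NM accession in the RefSeq gene table, and coding length was a multiple of 3 in 86 of 86 rows.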

How the data were processed

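Pol I CUT&Tag was made from 4 libraries, of which 2 received auxin and 2 served as control. The file analysed is an annotation of the whole series in 12-column BED layout, and 0 columns hold values per library, so no group comparison or paired fit was run. The deposited file has a score column that reads 0 throughout its 50727 rows and was not used. Positions and exon sizes are in bases. The submitters' processing notes name mm10 as build, and Bowtie2, FastQC, bedtools and deepTools as tools. How the annotation was made is not given in the sources used here.

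Exonic distances, 3' UTR introns and overlaps were computed in Python 3.11.15 with numpy 2.4.6 and pandas 2.3.3, and drawn with matplotlib 3.10.9. The distance routine was tested on simulated data, where 0 of 600 transcripts differed from counting base by base. Positions are printed counted from 1. A stop lying exactly at a junction counts that junction as a 3' UTR intron. Coding bases after a stop were taken from other rows on the same strand. RefSeq tables of GRCm38.p6 gave gene classes, stop codons and microRNAs.

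The members and the 13 gene lists were chosen with earlier results of these data known. Genes were named by rule: Arc, up to 4 members per list, the 10 with most 3' UTR introns, the 10 with the longest distances, the 5 with the longest 3' UTR introns, the 5 with most rows all of them members, and those beside the threshold. All other genes, families and role groups named were chosen after their values were seen. Results were recomputed with distance thresholds of 0, 50, 100 and 200 bases, on all contigs, with identical rows counted once and with frames in multiples of 3 only. Counting from the first base of the stop codon, and leaving out rows with coding bases elsewhere, were added after seeing the data. In all counts, 1 gene is included that is not reported here by name.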

Additional observations from a re-analysis of the deposited data

How the results depend on the processing

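No paired analysis was possible because the annotation holds no value per library, and other normalizations or left-out libraries of Pol I occupancy were likewise not run. The count of members depends on the distance required. With any distance above 0 bases there were 2060 rows, 1192 symbols, 689 symbols with every row a member and 32 list symbols. With more than 100 bases these were 53 rows, 42 symbols and 34 symbols with every row a member, and with more than 200 bases 36, 29 and 22. On all contigs, leaving out the one named R, there were 147 rows. Without rows whose bases after the stop are coding in another row, 4 list symbols were left of 9, while 68 rows and 55 symbols were left. Counting from the first base of the stop codon gave 98 rows and a threshold of 50 bases gave 100. Of 45 values under alternatives, 33 stayed within 1.5 times the reported one or, for the median of 1 intron after the stop, were equal to it. The annotation has no depth, and no row shows whether its transcript is made in these cells.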

Other observations

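On contigs outside the assembled chromosomes (alternate, fix and unplaced sequences), 61 of 2740 eligible rows (2.23%) passed the same distance, against 0.236% on the assembled chromosomes. They came from 24 symbols, and 18 of these, with 50 rows, had no member row on an assembled chromosome. The coding length was the same as in an assembled row for 46 of the 50 rows, and for 16 of the 18 symbols every assembled row had its stop in the last exon. Kcnj15, a potassium channel gene, had 11 rows on an alternate contig with a junction 2263 bases after the stop, across a gap of 26 bases. Mfn2, which encodes a mitochondrial fusion protein, had 7 rows with a gap of 64 bases, and Tmem234 had 7 with a gap of 27 bases. In 39 of the 61 rows, from 11 symbols, the shortest 3' UTR gap was under 76 bases, the shortest in any member row on the assembled chromosomes. What lies in these gaps was not tested, as no genome sequence was used.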
